A study of Rattus norvegicus with 6 samples.

Results

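The hippocampal RNA-seq comparison set 1 library from Sprague-Dawley rat hippocampus after benzo[a]pyrene (B[a]P) against 1 library after the corn oil vehicle. The first is called the exposed library here. B[a]P is a combustion product that activates the aryl hydrocarbon receptor. It was dissolved in corn oil and given by gavage at 2.0 mg/kg each day, and the control received corn oil of the same volume. The labels gave 7 weeks of gavage and an age of 7 weeks for both groups. They did not give whether the age is that at the start or at sampling, or whether tissue of several rats was pooled. These were 2 of the 6 libraries of the series. Of the 35362 symbols in the tables, the 13261 with a value of at least 1 FPKM (fragments per kilobase of transcript, scaled to library total, taken from the values because no label names the unit) in either library were compared. With 1 library a group, no difference has a replicate check, no test was possible, and each value compares these libraries and not the treatments. A gene was counted as different at 2-fold or more on the scale of log2(FPKM + 1), a scale on which differences of low genes shrink. Folds given for single genes are ratios of the FPKM values themselves.

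The hippocampus is a cortical structure of granule cells, pyramidal cells, interneurons and glia, and its fimbrial edge borders the lateral ventricle. The choroid plexus of that ventricle is attached there. It is a fenestrated capillary bed under a simple epithelium that secretes cerebrospinal fluid and transthyretin, and its core holds stromal cells that share genes with the meninges. In bulk RNA, fewer cells of a type and less RNA per cell cannot be told apart.

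Both libraries carried most markers of the neurons and glia of their labelled tissue. Of the pan-neuronal list, 15 of 16 genes were above the floor, and all 16 had a summed level of 2310 FPKM in the exposed library and 2030 FPKM in the control library. All 15 astrocyte markers and all 13 pyramidal cell markers were above it too. The dentate granule cell list had 9 of 12 above it. The interneuron list had 12 of 14, with Npy at 0 in both libraries. The list of neighbouring brain regions, which holds striatal, thalamic and neocortical genes, summed to 76.9 and 75.9 FPKM.

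The depth behind the values could be read from the tables. At low levels, a gene's exposed value divided by its control value was a quotient of small whole numbers times 1 constant, so the authors' values came from whole counts per gene. Under a mean of 0.05 FPKM, 100% of 1500 sampled genes gave such quotients of numbers up to 150, and from 0.2 to 0.5 FPKM 89% did, against 11.7% at a shifted constant. The constant put the control library 1.06 times deeper than the exposed one. Short genes whose RefSeq length applied gave the totals used for scaling. For 62 of 482 such genes the implied total of the exposed library was the same within 0.5%, at 87.7 M, and for 31 more it was 1/2 of it, as happens where both numbers share a factor. The control total was then 92.9 M, and both totals rest on those lengths. At 1 FPKM a transcript of 2 kb would hold about 175 counts. Whether these are reads or read pairs is not given in the sources used here.

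Ranks of genes by level were nearly the same in both libraries. Spearman's rho was 0.986 across the 13261 genes, a description of genes within 2 libraries. The top 100 genes of each library shared 90 members, and the top 1000 shared 958. Among the 1042 genes in either top 1000, the median move was 26 ranks and 88.3% moved by less than 100.

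The head of the table was held by structural RNAs and housekeeping transcripts. LOC102723236 ranked first in both libraries. Its gene ID is now Rn7sl1 in RefSeq, the 7SL RNA of the signal recognition particle, and it took 78.8% of the summed values in the exposed library and 81.7% in the control library. Rmrp, an RNA component of a ribonuclease, was next with 32841 and 37484 FPKM. Among protein-coding genes, Apoe, the apolipoprotein of astrocytes, was at 1708 and 1700 FPKM and had rank 5 in both. Cst3, which encodes the secreted protease inhibitor cystatin C, was at 1578 and 1890 FPKM. Tmsb4x, an actin-binding peptide gene, was at 1443 and 1244 FPKM. Zwint, strongly expressed in neurons, was at 939 and 844 FPKM. Leaving out the 2 structural RNAs, the top 1000 genes held 52.8% of the summed values in the exposed library and 53.1% in the control library.

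5 of the 1042 genes moved by more than 1000 ranks. Igfbp2, which encodes an insulin-like growth factor binding protein, went from rank 554 in the control library to 5297 in the exposed library. Enpp2, the autotaxin gene, went from 359 to 3556, and the unnamed locus LOC103693757 from 728 to 3108. Upward, LOC100362027 went from rank 15809 to 234 and the mitochondrial tRNA Trny from 8186 to 15. Ttr, the transthyretin gene, had rank 3 in the control library and 699 in the exposed library. The next downward move after it was of Cryab, a small heat shock protein gene, from 657 to 1278 (37.9 against 59.8 FPKM). The next upward moves were of LOC100134871 (961 to 334), Psd3 (1219 to 947; 47.6 against 36.9 FPKM) and RGD1566401, which RefSeq names Meg3, a maternally expressed long noncoding RNA (898 to 628; 66.9 against 46.6 FPKM).

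The ratios spread less as level rose from 1 to 100 FPKM. The half-width of the central 68% of log2 ratios was 0.17 at 1 to 2 FPKM (1843 genes), 0.12 at 5 to 10 FPKM (2951 genes) and 0.10 at 50 to 100 FPKM (491 genes). It was 0.32 for the 280 genes with a mean under 1 FPKM, but the floor fixed part of that width. Each of these 280 genes had to reach 1 FPKM in 1 library and lie under it in the other. On the same scale, the counting error alone of a 2 kb transcript would be 0.08 at 1 FPKM, 0.04 at 10 FPKM and 0.02 at 100 FPKM. Spread between any pair of separate libraries adds to counting error. The median ratio lay between 0.05 (at 1 to 2 FPKM) and 0.11 (under 1 and at 50 to 100 FPKM) in all bins. It rose at each step between the 1 to 2 and the 50 to 100 FPKM bins and was lower above them. Of all genes, 74.5% had the higher value in the exposed library. The summed values without LOC102723236 and Rmrp were also higher there, at 255121 against 240968 FPKM. The part of this difference in composition in the general shift was not tested. At 500 FPKM and over, 28 genes had a half-width of 0.19, and 2 of them, the tRNA genes Trna (1777 against 1053 FPKM) and Trnc (1154 against 669 FPKM), were past 1.5-fold upward.

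**Figure D1:**
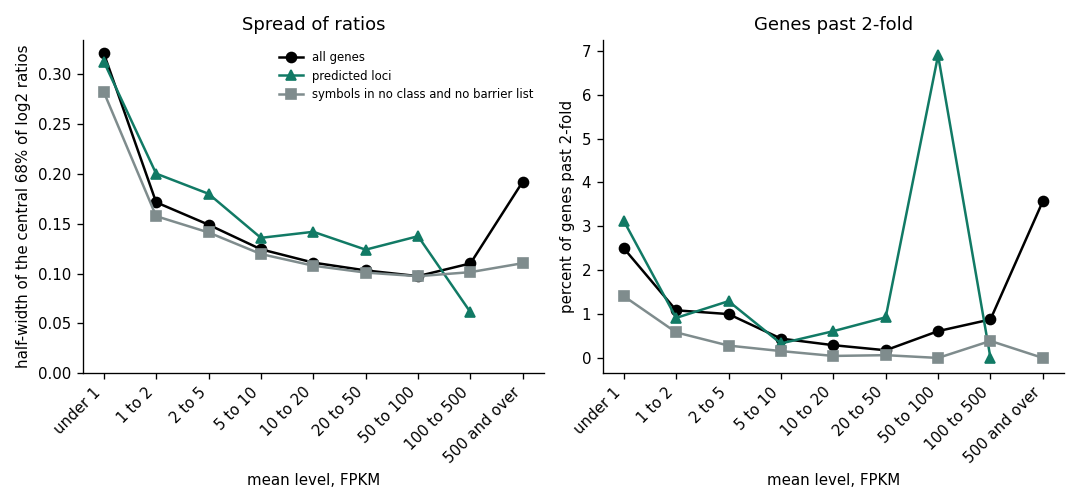
Left, the half-width of the central 68% of log2 ratios of FPKM + 1 in bins of mean level of the 2 libraries; right, the percent of genes at least 2-fold different in the same bins. Circles are all genes above the floor, triangles predicted loci and squares genes outside the barrier lists and symbol classes. For all genes the half-width narrows from 0.17 at 1 to 2 FPKM to 0.10 at 50 to 100 FPKM, and the triangle at 6.90% rests on 2 of 29 loci. Both values of the bin under 1 FPKM (half-width 0.32) are raised by the floor, which 1 library had to reach and the other to miss.

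The spread also depended on which genes were counted. The SD of log2 ratios was 0.25 over all genes and 0.17 over the 10897 genes that were in no barrier list (choroid plexus, ependymal, stromal, endothelial or epithelial) and in no symbol class (predicted loci, small RNAs, histone, ribosomal protein, RT1, receptor, immunoglobulin or zinc finger genes). That remainder held 5 genes at least 2-fold higher and 18 lower by the same measure. The barrier lists were chosen with earlier results of these data known, so part of the fall in SD and counts was fixed in advance. Predicted loci, whose symbols begin with LOC, RGD or MGC, had an SD of 0.32 over 1839 genes and held 21 of the 89 genes (0.671% of all) past 2-fold. Zinc finger genes, another large family, had an SD of 0.12 over 218 genes and none past 2-fold.

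**Figure D2:**
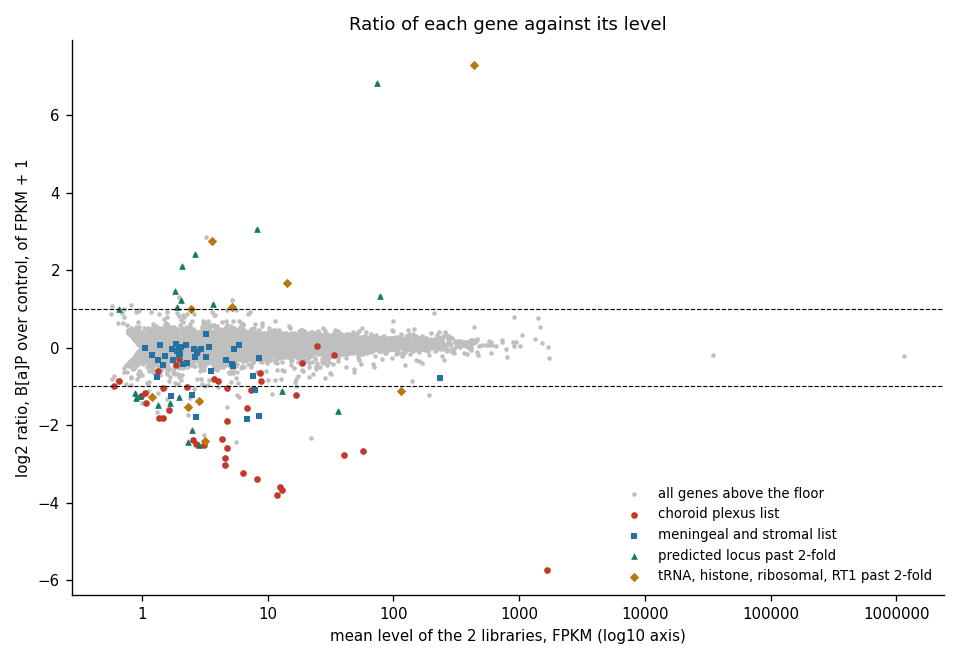
Log2 ratio of FPKM + 1, B[a]P over control, of each of the 13261 genes against the mean level of the 2 libraries on a log axis, with dashed lines at 2-fold. Of the 69 points below the lower line 28 are choroid plexus list members, and of the 20 above the upper line 10 are predicted loci.

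In all, 69 genes (0.52% of those compared) were lower by 2-fold or more in the exposed library, and 20 (0.151%) were higher by as much. The threshold had no gap on either side. Just inside it among lower genes lay the cyclin-dependent kinase inhibitor gene Cdkn1c (-1.01), Krt8 (-1.02) and Krt18 (-1.04), and just outside it Adipoq, the adiponectin gene of fat cells (-0.9996), Mmp14 (-0.99) and Prlr, the prolactin receptor gene (-0.99). Among higher genes, LOC685273 (1.002) and RT1-M6-2 (1.01) lay just inside and Trnl2 (0.99), Fbln2 (0.97) and Dus2 (0.96) just outside.

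Genes of the choroid plexus were the largest named group among the lower genes. The choroid plexus epithelium list was chosen with earlier results of these data known, so its counts and sums are not independent support. It had 41 genes above the floor. Of these 28 were at least 2-fold lower, none was at least 2-fold higher, and 40 had the lower value in the exposed library. The exception was Atp2b3, a calcium pump gene also expressed in neurons (25.1 against 24.4 FPKM). The floor fixed part of this, because 20 of the 41 reached 1 FPKM in the control library only and had to be lower in the other. Of the 21 members that reached it in both, 20 had the lower value and 11 were past 2-fold downward, with a median log2 ratio of -1.02. Over all 41 the median log2 ratio was -1.43, against 0.09 over all genes. The summed level of all 52 members, for which the floor plays no part, was 215 FPKM with B[a]P and 3834 FPKM in control, and without Ttr 154 against 534 FPKM. The folds of the 28 genes ranged from 2.42 to 57.6, with a median of 15.3. The 10 with the lowest log2 ratios were Ttr, Kl, Folr1, Clic6, Aqp1, Cldn2, Tmem72, Mfrp, Igfbp2 and Enpp2.

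Transporters and channels among the other 18 genes had folds from 2.45 to 57.6. Slco1a5, an organic anion transporter gene, was at 0.0467 FPKM in the exposed library and 2.69 FPKM in the control library, a ratio of 57.6. With the totals above, this is 4.09 counts per kb of transcript in the exposed library and 249.6 in the control library, so the exposed value is the less certain. Tmem27, which encodes collectrin, was 45.9-fold lower (0.116 against 5.31 FPKM). Slc4a5, a sodium bicarbonate cotransporter gene, was 26.1-fold lower (0.231 against 6.04 FPKM). The potassium channel genes Kcne2 and Kcnj13 were 14.1-fold (0.629 against 8.90 FPKM) and 10.9-fold lower (0.731 against 7.93 FPKM). The monocarboxylate transporter gene Slc16a8 was 7.08-fold lower, and the anion exchanger gene Slc4a2, which is widely expressed, 2.45-fold lower (2.77 against 6.77 FPKM).

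Secreted, membrane enzyme and matrix genes of the list ranged from 2.42-fold to 33.5-fold. Sostdc1, a secreted antagonist of BMP and Wnt signalling, was 33.5-fold lower (0.148 against 4.96 FPKM). F5, the coagulation factor V gene, was 30.4-fold lower (0.0942 against 2.87 FPKM). The secreted phospholipase gene Pla2g5 was 10.7-fold lower, the collagen gene Col8a1 9.89-fold lower (0.304 against 3.01 FPKM), and Ace, which encodes angiotensin-converting enzyme, 5.64-fold lower (1.42 against 8.003 FPKM). Col9a3 was 2.42-fold lower (4.27 against 10.4 FPKM).

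Other members were the metalloreductase family gene Steap1 (16.4-fold) and the homeobox gene Msx1 (3.62-fold; 2.95 against 10.7 FPKM). The keratin genes of simple epithelia Krt18 and Krt8 were 3.74-fold and 2.91-fold lower. Vat1l was 2.48-fold lower from a higher level (9.68 against 24.0 FPKM). Members not past 1.5-fold included Car12 (31.3 against 35.7 FPKM), Slc26a11 (2.63 against 2.86 FPKM) and Ezr, the ezrin gene (16.1 against 21.5 FPKM).

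**Figure D3:**
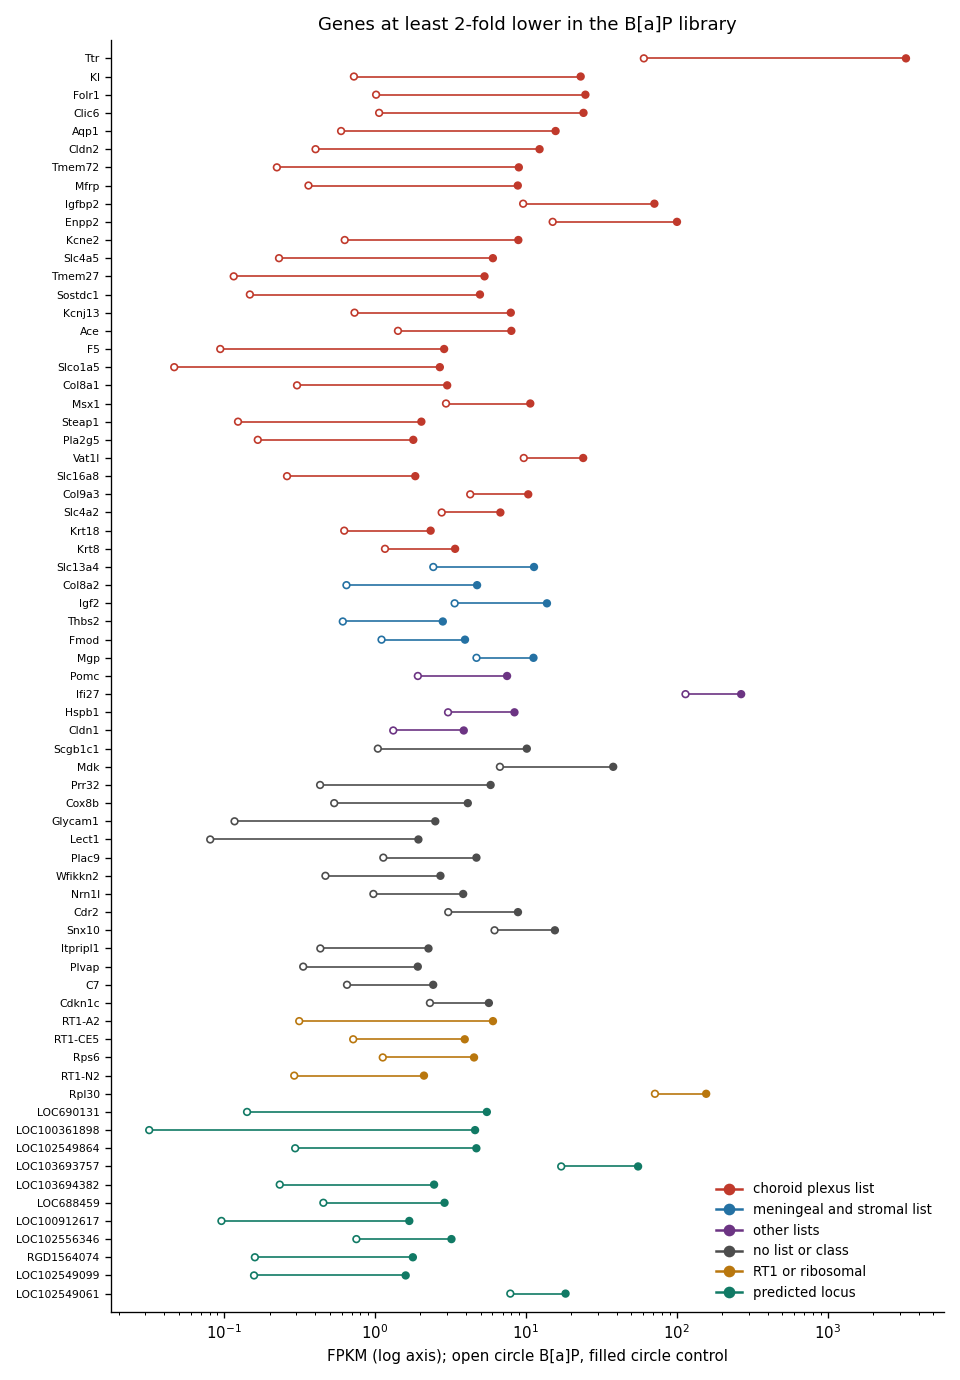
FPKM on a log axis of each of the 69 genes at least 2-fold lower in the exposed library, with an open circle for B[a]P and a filled circle for control, grouped by list or symbol class. The 28 choroid plexus list members at the top span control levels from 1.79 to 3300.2 FPKM, and 40 of the 69 genes were under 1 FPKM in the exposed library.

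Because the choroid plexus genes differed in 1 direction, their promoters were searched for TAATCC, the core that bicoid-type homeodomain proteins such as OTX2, a choroid plexus transcription factor, are known to bind. Otx2 itself was at 0.0069 FPKM in the exposed and 0.018 FPKM in the control library. Both strands were read over the 300 bases from 250 before to 50 after each RefSeq start (build GRCr8). Of the 31 choroid plexus list members above the floor with a promoter entry, 5 held the core (16.1%). All 5 were among the 21 at least 2-fold lower (23.8%), a subset picked by the same values that prompted the search. The core was in 5.07% of 10005 genes above the floor and in 7.11% of all 27457 promoters. It was in 2 of 27 (7.41%) of the other lower genes. A match is a description of letters and not of a bound site. 4 of the 5 windows are shown with the match in capitals (GGATTA is the same core read on the other strand), which began 82, 38, 173 and 51 bases before the start in Tmem27, Ace, Pla2g5 and Vat1l.
Tmem27, chrX:34027075-34027374, minus strand: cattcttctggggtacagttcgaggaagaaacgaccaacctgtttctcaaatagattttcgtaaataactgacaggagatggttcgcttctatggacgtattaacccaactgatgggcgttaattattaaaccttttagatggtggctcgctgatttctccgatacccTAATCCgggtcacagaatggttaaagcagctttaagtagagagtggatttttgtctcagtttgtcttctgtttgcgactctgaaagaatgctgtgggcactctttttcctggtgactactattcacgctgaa
Ace, chr10:91409879-91410178, plus strand: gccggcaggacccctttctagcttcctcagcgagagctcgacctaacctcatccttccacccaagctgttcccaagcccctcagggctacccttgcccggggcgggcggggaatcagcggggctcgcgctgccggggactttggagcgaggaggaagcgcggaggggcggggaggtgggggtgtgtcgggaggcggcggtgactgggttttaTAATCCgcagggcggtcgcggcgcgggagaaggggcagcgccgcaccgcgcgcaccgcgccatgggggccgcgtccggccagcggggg
Pla2g5, chr5:156345873-156346172, minus strand: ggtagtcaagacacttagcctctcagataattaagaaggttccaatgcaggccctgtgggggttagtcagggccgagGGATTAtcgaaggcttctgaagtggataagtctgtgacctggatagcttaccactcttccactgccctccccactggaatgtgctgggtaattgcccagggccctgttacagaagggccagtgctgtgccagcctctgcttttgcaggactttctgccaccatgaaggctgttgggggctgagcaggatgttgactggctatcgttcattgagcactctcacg
Vat1l, chr19:59103386-59103685, plus strand: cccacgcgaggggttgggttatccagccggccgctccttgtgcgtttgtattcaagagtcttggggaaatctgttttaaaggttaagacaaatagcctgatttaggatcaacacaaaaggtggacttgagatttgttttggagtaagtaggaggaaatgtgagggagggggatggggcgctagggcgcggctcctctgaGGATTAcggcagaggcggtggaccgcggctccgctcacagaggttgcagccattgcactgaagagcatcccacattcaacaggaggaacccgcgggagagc

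Stromal and epithelial genes made up a smaller group. Of 40 genes above the floor in the meningeal and stromal list, 6 were at least 2-fold lower and none at least 2-fold higher, with a list median of -0.25. Col8a2, a collagen of basement membranes, was 7.34-fold lower (0.646 against 4.74 FPKM). Slc13a4, a sulfate transporter gene of meninges and choroid plexus, was 4.65-fold lower, and Thbs2, a matricellular glycoprotein gene, 4.60-fold lower (0.611 against 2.81 FPKM). Igf2 was 4.09-fold lower, the small leucine-rich proteoglycan gene Fmod 3.57-fold lower (1.10 against 3.95 FPKM), and the matrix Gla protein gene Mgp 2.39-fold lower (4.70 against 11.2 FPKM). Other matrix genes of the list were not past 2-fold: Dcn was at 7.72 against 9.44 FPKM, Col1a1 at 1.67 against 2.56 FPKM, Lum at 2.05 against 2.01 FPKM and Col5a2 at 3.75 against 2.71 FPKM. The choroid plexus epithelium list, which summed to 215 against 3834 FPKM, differed the same way as these 6 genes, and its part in their difference was not tested.

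The general epithelial list had 12 genes above the floor and 3 of them at least 2-fold lower. These were Krt8 and Krt18, both already counted in the choroid plexus list, and the tight junction gene Cldn1 (1.32 against 3.87 FPKM). Spint2, a protease inhibitor gene, was at 12.9 against 22.1 FPKM, while Perp (4.80 against 3.64 FPKM) and Bspry (12.4 against 11.3 FPKM) had the higher value in the exposed library. Of the motile cilia genes of ependymal cells, 0 of 17 were past 2-fold, but 14 of 17 lay below the median of all genes and the list median was -0.15. Foxj1, the master regulator of motile cilia, was at -0.97. The endothelial and mural list had 0 of 32 past 2-fold and summed to 275 and 273 FPKM.

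15 of the lower genes were in no list and no class, and are given here after their values were seen. Mdk, which encodes the heparin-binding growth factor midkine, was 5.63-fold lower and had the highest level (6.72 against 37.9 FPKM). Scgb1c1, a secretoglobin gene, was 9.71-fold lower (1.04 against 10.1 FPKM). Lect1, the chondromodulin gene now named Cnmd, was 24.0-fold lower, and Glycam1, a mucin-like gene, 21.4-fold lower. Prr32 was 13.5-fold lower, Cox8b, the striated muscle and brown fat form of a cytochrome oxidase subunit, 7.68-fold lower, and Wfikkn2, which encodes a multi-domain protease inhibitor, 5.78-fold lower. Plvap, the diaphragm protein gene of fenestrated endothelium, was 5.75-fold lower (0.334 against 1.92 FPKM). The complement gene C7 was 3.73-fold lower, the sorting nexin gene Snx10 2.51-fold lower (6.19 against 15.6 FPKM) and Cdkn1c 2.46-fold lower. The other 4 were Plac9 (4.14-fold), Nrn1l (3.94-fold), Itpripl1 (5.21-fold) and Cdr2 (2.90-fold; 3.06 against 8.85 FPKM). All lay lower together with the choroid plexus list, whose part in their ratios was not tested.

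3 other lists had a lower gene. Pomc, the pituitary and hypothalamic hormone precursor gene, was 3.90-fold lower (1.92 against 7.50 FPKM), and Gh1, the growth hormone gene, was at 2.48 against 4.95 FPKM. Hspb1, a small heat shock protein gene, was 2.76-fold lower. Ifi27 was 2.34-fold lower from a high level (114 against 267 FPKM), opposite to Ifit3 (7.74 against 2.74 FPKM), although both are interferon-induced genes. The interferon list had 31 genes above the floor, 1 past 2-fold in each direction, and a median of 0.35, the highest of the 20 lists.

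**Figure D4:**
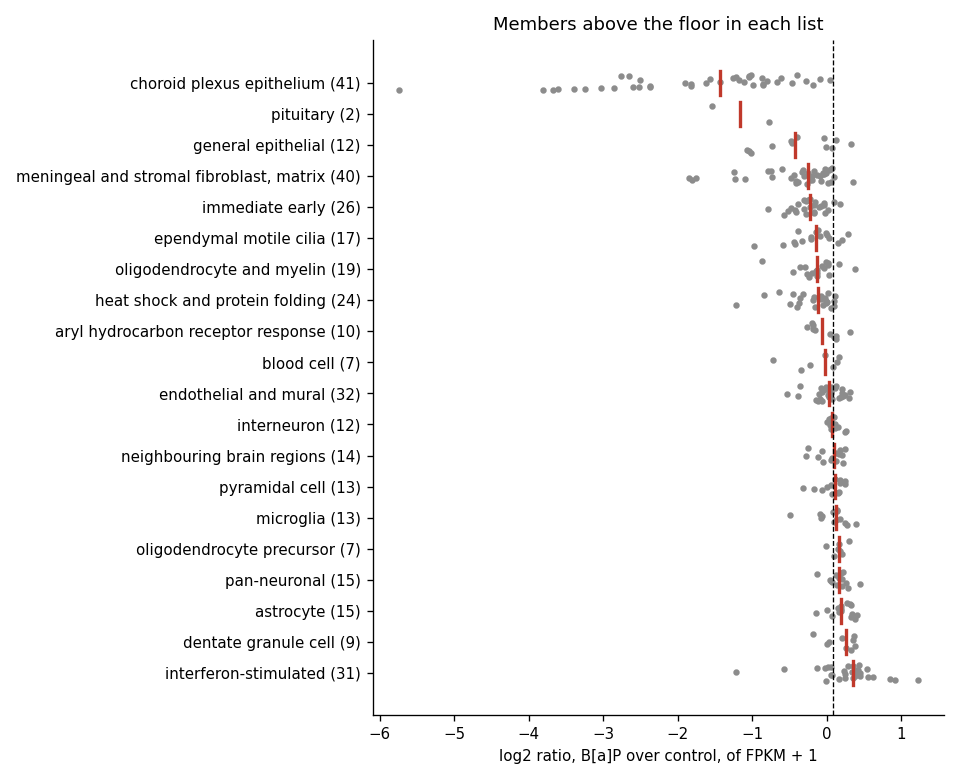
Log2 ratio of FPKM + 1, B[a]P over control, of each member above the floor (grey points) in the 20 lists, with the list median (red bar), the number of members in parentheses and the median of all genes (dashed line at 0.09). The choroid plexus list lies lowest at -1.43 and the interferon list highest at 0.35.

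Copies of other genes, by their RefSeq names, made up much of the higher side. 10 of the 20 higher genes (50%) were predicted loci, a class that made up 13.9% of all genes compared. Of those 10, 7 have since been named under the same gene ID in RefSeq. LOC100362027 is Rpl30l2, a copy of the ribosomal protein gene Rpl30. LOC100363537 is Rpl10a-ps9, LOC102557484 Rpl12-ps6, LOC103692946 Ube2s-ps3 and LOC685273 Snrpc-ps3, all pseudogenes. LOC100134871 is Hbbl1, a beta globin gene, and LOC689268 is Spetex2el1.

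Parents and copies are given for families chosen because a member was past 2-fold, 14 of 1340 families with a parent and a named copy. Of named copies above the floor, 9 of 367 (2.45%) were past 2-fold in either direction, and of parents 6 of 1313. The pairing by name also joins protein-coding genes that need not be copies, such as Itprip and Itpripl1. Rpl30 was at 71.6 FPKM in the exposed library and 156 FPKM in the control library, while Rpl30l2 was at 148 and 0.308 FPKM. The sum over the Rpl30 genes was 219 against 157 FPKM, a log2 ratio of 0.48. Rpl10a was at 107 against 125 FPKM and Rpl10a-ps9 at 15.6 against 1.003 FPKM, which summed with their other copies to 124 and 127 FPKM. Ube2s, a ubiquitin-conjugating enzyme gene, was at 42.9 against 47.3 FPKM and Ube2s-ps3 at 5.12 against 0.153 FPKM, and the sum was 48.1 against 47.4 FPKM. Snrpc, which encodes a protein of the U1 small nuclear ribonucleoprotein, was at 6.05 against 6.96 FPKM and Snrpc-ps3 at 1.205 against 0.101 FPKM, with a sum of 7.41 against 7.17 FPKM. In each of these 4 families the parent had the lower and the copy the higher value in the exposed library, although Rpl10a, Ube2s and Snrpc themselves lay within 1.2-fold.

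Chchd4, a gene of mitochondrial protein import, showed the reverse. It was at 14.3 FPKM in the exposed library and 8.57 FPKM in the control library, while its copy LOC100361898, now Chchd4-ps1, was at 0.0319 and 4.60 FPKM. The sum was 14.3 against 13.2 FPKM, so a pseudogene 144-fold lower (2.79 against 427 counts per kb) stood beside a family log2 ratio of 0.11. Hbb was at 140.2 against 178 FPKM and Hbbl1 at 112 against 44.3 FPKM, and both summed to 252 against 222 FPKM. Rpl12 and its copy Rpl12-ps6 (2.93 against 0.883 FPKM) were both higher.

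Ndufa10l1, a copy of a complex I subunit gene, was higher without a lower value of its parent. It was at 6.39 against 0.0300 FPKM (561 against 2.79 counts per kb), while Ndufa10 was at 18.2 against 17.1 FPKM. Rps6, a ribosomal protein gene, was 4.03-fold lower (1.12 against 4.53 FPKM), and none of its copies in the table reached 1 FPKM. In the Prr32, Krt8, Krt18 and Itprip families the member past 2-fold was lower and no member was past 2-fold upward. The sums of these families had log2 ratios of -2.26, -1.02, -0.54 and -0.88. Sums of FPKM ignore differences in length between a gene and its copy. With each parent summed with its copies, 13 genes were past 2-fold upward and 65 downward.

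**Figure D5:**
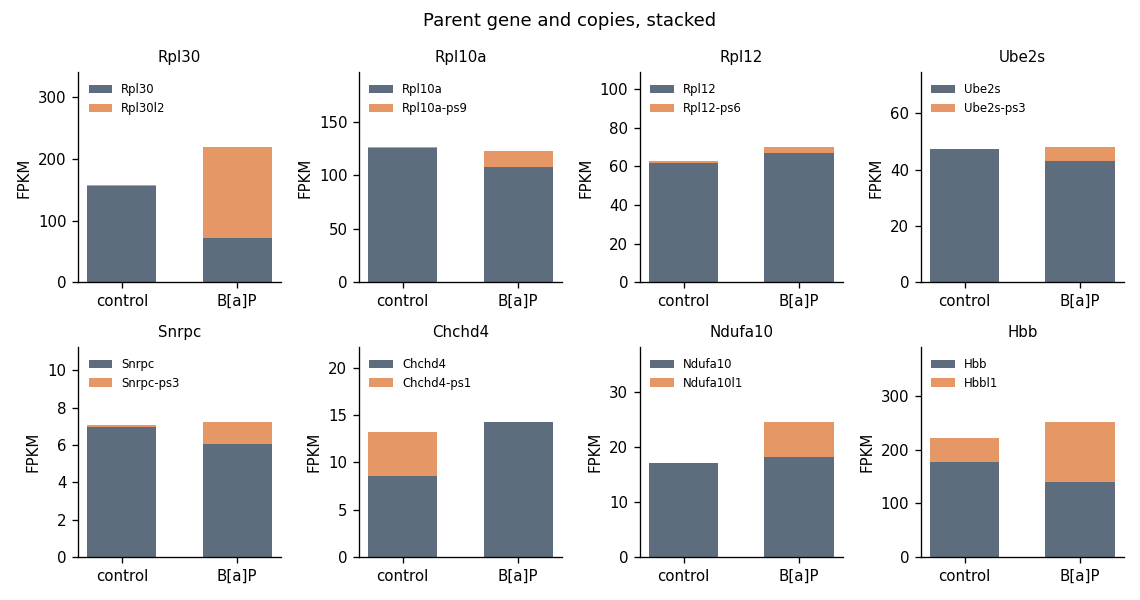
Stacked FPKM of 8 parent genes (dark) and their copies at 1 FPKM or more (orange) in the control and B[a]P libraries, 1 library each, with linear axes from 0. In the Rpl30 panel the copy is 0.308 FPKM in control and 148 FPKM in B[a]P, and in the Chchd4 panel the copy is visible in control only.

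Histone, RT1 and transfer RNA genes completed the multi-copy group. Of 37 histone genes above the floor, 35 lay within 2-fold and the class summed to 922 against 882 FPKM. The H2A gene Hist2h2ac was higher (22.2 against 6.27 FPKM), while LOC690131, which is Hist2h2aa2, another H2A gene on the same chromosome, was 38.8-fold lower (0.142 against 5.51 FPKM). H3f3c, classed as a pseudogene, was at 7.01 against 0.185 FPKM, and H3f3b, which encodes the same histone variant family, at 97.6 against 85.9 FPKM. Of 12 RT1 genes, which encode major histocompatibility proteins and differ between rat haplotypes, 3 were at least 2-fold lower and 1 at least 2-fold higher. RT1-A2 was at 0.314 against 6.05 FPKM, RT1-CE5 at 0.716 against 3.93 FPKM, RT1-N2 at 0.291 against 2.11 FPKM and RT1-M6-2 at 3.60 against 1.29 FPKM. The 12 summed to 56.9 against 62.4 FPKM. For the reads of such genes the assignment between copies was not tested.

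Transfer RNA genes whose symbols begin with Trn are mostly those of the mitochondrial genome. Of 24 such symbols above the floor, 22 had the higher value in the exposed library, where 74.5% of all genes had it. The 22 include Trnt1 and Trnp1, 2 protein-coding genes by RefSeq symbol. Without Trny, which was 189.8-fold higher, the remaining 23 summed to 7415 against 5542 FPKM. Trnn was at 522 against 362 FPKM, Trnf at 5.11 against 2.41 FPKM, and Trnr the other way at 14.3 against 16.6 FPKM. Trns2 was 2.43-fold higher (7.41 against 3.05 FPKM). Transfer RNAs are shorter than usual library fragments, so FPKM values of these genes depend on how length was treated, which is not given in the sources used here.

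A few higher genes had an established symbol and no class. Tph1, a tryptophan hydroxylase gene, was 63.4-fold higher (1.14 against 0.0179 FPKM). Its control value stands for 1.66 counts per kb, and on the log2(FPKM + 1) scale it lay just inside the threshold at 1.07. Otop3, a proton channel gene, was 9.26-fold higher (1.48 against 0.160 FPKM) and Ghdc 4.45-fold higher (3.24 against 0.728 FPKM). 12 of the 20 higher genes were under 1 FPKM in the control library. 9 predicted loci past 2-fold matched no RefSeq entry. The 3 higher ones were LOC103690108 (3.99 against 0.166 FPKM), LOC103693787 (3.27 against 0.814 FPKM) and LOC103694506 (5.41 against 1.92 FPKM). The 6 lower ones were LOC103693757 (17.1 against 55.4 FPKM), LOC102549864 (0.296 against 4.69 FPKM), LOC103694382, LOC100912617, LOC102556346 and RGD1564074, with folds from 3.23 to 17.6. A further 3 lower loci had an entry and no named parent: LOC688459, now C9h6orf141 (6.35-fold lower), the long noncoding RNA LOC102549099 (10.1-fold lower) and the protein-coding LOC102549061 (7.88 against 18.3 FPKM).

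Most genes differed little, and 90.3% of the 10897 genes outside the barrier lists and symbol classes lay within 1.2-fold. The counts that follow are over all genes compared. Of the 89 genes past 2-fold, 17 had a mean level of 10 FPKM or more, 13 lower and 4 higher. The 1.5-fold limit was passed upward by 80 genes (0.603%) and downward by 157 (1.18%), and 87.9% of all genes lay within 1.2-fold. Between these limits, and chosen after their values were seen, Cox5b, a cytochrome oxidase subunit gene, was at 274 against 147 FPKM, Tubb2a, a beta tubulin gene, at 123 against 76.2 FPKM, and Tf, the transferrin gene of oligodendrocytes and choroid plexus, at 98.5 against 181 FPKM. Ptgds, the prostaglandin D synthase gene of meninges and choroid plexus, was at 173 against 299 FPKM.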

How the data were processed

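Hippocampal RNA was sequenced from 1 B[a]P and 1 control library. Per the submitters' processing notes bcl2fastq and the builds rn6 and rn5 were used, with no role for each. For the aligner, the counter and the annotation, nothing is stated in the labels or headers. The mRNA tables hold FPKM values as deposited, 1 line per symbol. The unit was inferred from the values. The lncRNA, miRNA and bisulfite tables were not used here.

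Genes at 1 FPKM in either library were compared as log2(FPKM + 1), with a size rule of 2-fold and no test. Members and gene lists were chosen with earlier results of these data known. Symbols were matched to RefSeq (GRCr8, names, lengths and promoter sequences only) by symbol (10998 genes above the floor), gene ID (514) or unique synonym (782), and 967 were unmatched. Copies were paired with parents by RefSeq name, and this rule was chosen after values were seen. The planned search for near-identical proteins was not run. Every gene past 2-fold was assigned to a list, to a symbol class or to neither. Values are given for some of those with the greatest ratios, some list leaders, some genes at the threshold and the greatest rank moves. Other genes with great ratios are named only, and other list leaders are left out. Low values were resolved to whole-number ratios within the rounding of the files. That gave the relative depth, and lengths of short genes gave the totals. On simulated data the whole-number ratios were recovered for 100% of 2000 genes under 0.5 FPKM. Lengths were known in that simulation, so whether the RefSeq lengths hold for the real genes was not tested. Python 3.11.15, pandas 2.3.3 and numpy 2.4.6 were used.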

Additional observations from a re-analysis of the deposited data

How the results depend on the processing

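With 1 library a group, no replicate could be left out. No paired analysis was possible because each group has a single library. The counts of genes past a fold limit depended on how low values were treated. At least 2-fold higher and lower genes numbered 53 and 127 with a pseudocount of 0.1, 37 and 95 with 0.5, and 11 and 36 with a floor of 5 FPKM. At 1.5-fold they numbered 220 and 254, 125 and 195, and 32 and 68. Without predicted, small RNA and multi-copy classes 5 genes were 2-fold higher and 53 lower (31 higher at 1.5-fold). Setting the median ratio to 1 removed a shift of 0.10, took the median to 0, left 16 higher and 73 lower, and put 4 of the 89 genes below 2-fold.

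3 alternatives were chosen after seeing the data. With parents summed with copies 13 genes were 2-fold higher and 65 lower. Without the choroid plexus list 41 genes were 2-fold lower. Without barrier lists and all symbol classes, 5 were higher and 18 lower (31 and 73 at 1.5-fold). The median log2 ratio was 0.10 with a pseudocount of 0.1, 0.026 with no floor, 0.085 with a floor of 0.5 FPKM and 0.097 with a floor of 5 FPKM. The SD was 0.36 and 0.29 with pseudocounts of 0.1 and 0.5. It was 0.18 with no floor, 0.24 and 0.26 with floors of 0.5 and 5 FPKM, and 0.22 without the multi-copy classes. It was 0.24 with parents summed, 0.22 without the choroid plexus list and 0.17 without barrier lists and classes. Spearman's rho was 0.961 with no floor and 0.981 with a floor of 5 FPKM. None of the 89 genes changed direction under the other settings that gave it a value. Summing parents with copies is not a value of 1 gene, and the family sum had the opposite sign to the member past 2-fold for Rpl30 (0.48 against -1.12), Chchd4-ps1 (0.11 against -2.44) and Rpl10a-ps9 (-0.04 against 3.05). Taking the highest line of each symbol changed nothing, since no symbol has more than 1 line. Depth limits genes under 1 FPKM most, where some past 2-fold had under 5 counts per kb in a library. The floor of 1 FPKM in either library also favours genes far apart at low levels: 40 of the 69 lower genes were under it in the B[a]P library and 12 of the 20 higher genes under it in control.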
